A study of Mus musculus with 12 samples.

Results

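Mouse hepatocytes labelled as lacking the Hippo kinases Mst1 and Mst2 together with Sox9 were compared with hepatocytes of floxed mice that had received only green fluorescent protein (GFP). The comparison rests on 4 of the 12 libraries of the series, 2 in each group, chosen by their labels. It covers the 10681 of 16116 measured genes that reached a log2 value of 1 in at least 2 libraries. The series, on the role of Sox9 in hepatocytes with active YAP, measured messenger RNA with an amplicon panel that reads 1 stretch of each gene. Values are log2 CPM, the log2 of a gene's reads scaled to a common library total. Values under 1 lie near the floor of this scale, so a difference that reaches down to them depends on how the log was taken.

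The control mice, called the floxed control, carried the reporter ROSA26-lsl-TdTomato and floxed alleles of both kinases (Mst1 fl/fl and Mst2 fl/fl), and received the virus AAV2/8-TBG-GFP. The Sox9-null Mst mice carried the same reporter and kinase alleles, with Sox9 fl/fl besides, and received AAV2/8-TBG-Cre. Another group, the Sox9-heterozygous Mst group, received the same Cre virus and carried Sox9 fl/+ in place of Sox9 fl/fl. TBG is a hepatocyte promoter, so each virus acts mainly in hepatocytes, and Cre also switches on the TdTomato reporter. All 3 groups were injected at 3 weeks of age and sorted 4 weeks later as Epcam-, CD45- cells, the controls for GFP and the mutants for TdTomato. The controls thus differ from the Sox9-null mice in Cre, in the sorting colour, in the kinase deletion and in the Sox9 deletion, and these cannot be told apart. A second experiment of the series is used here for 1 tested comparison. In it Sox9 fl/fl mice received the Cre virus and a virus for mutant YAP S127A joined to GFP (AAV2/8-TBG-YAP S127A-P2A-GFP). Wild type mice received GFP virus. A Sox9-heterozygous group with YAP S127A is used only for the values of single genes. Mice of that experiment were also injected at 3 weeks of age, and the cells were taken 3 weeks after injection.

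In the Hippo pathway, MST1 and MST2 (genes Stk4 and Stk3) activate the LATS kinases, which phosphorylate the coactivators YAP and TAZ and keep them out of the nucleus. Without them YAP and TAZ enter the nucleus and act through TEAD factors on genes such as Ctgf and Cyr61. In the liver this switch limits organ growth, and active YAP in hepatocytes is known to bring out features of bile duct and progenitor cells. Sox9 is a transcription factor of those cells.

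The deposited table carries a structure that bears on all p-values. For 98.9% of kept genes, both GFP control groups of the series had the same mean to within 0.05. Around these means each library's deviation appeared to have been multiplied by a factor that differed between genes (median 1.58). This factor was inferred from the smallest common unit of a gene's half-differences between the libraries of a group. That unit was assumed to have been 0.005 at first. No label used here describes such steps or gives a number of reads per library. The linear values summed to between 1001700 and 1003200 in the Sox9-null libraries and between 884375 and 904975 in the floxed controls, so the scale of the libraries moved with the groups. Whether both libraries of a group are from different animals is not stated in the labels, so p-values here reflect only how far these libraries spread within groups, and that spread can be technical. In what follows ± is the standard error of a log2 difference, and p-values come from limma with Benjamini-Hochberg adjustment over all kept genes.

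Of the targeted genes, Sox9 was lower in the Sox9-null libraries and the floxed kinase genes did not pass the test. Sox9 (chr11:112782224-112787760, plus strand, GRCm38) stood at 4.33 and 3.13 log2 CPM in the floxed controls, at 6.47 and 6.0 in the Sox9-heterozygous libraries and at 1.41 and 1.29 in the Sox9-null libraries. The 3 groups did not overlap, and the Sox9-null libraries were the lowest (-2.38 ± 0.38 against the control, adjusted p = 8.73e-04). Stk4, which encodes MST1 (chr2:164070322-164155524, plus strand), was at 4.89 and 4.82 in the controls and 4.49 and 4.09 in the Sox9-null libraries (-0.56 ± 0.25, adjusted p = 0.222). Stk3, which encodes MST2 (chr15:34875496-35178921, minus strand), was at 4.04 and 3.78 in the controls and 3.98 and 4.45 in the Sox9-null libraries, with overlapping groups (0.31 ± 0.27, adjusted p = 0.621). Where each amplicon lies in its gene is not stated in the labels, and an amplicon outside the floxed exons does not check the deletion. Yap1 itself (0.15 ± 0.24, adjusted p = 0.819) and the TAZ gene Wwtr1 (0.49 ± 0.26, adjusted p = 0.333) did not pass.

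**Figure D1:**
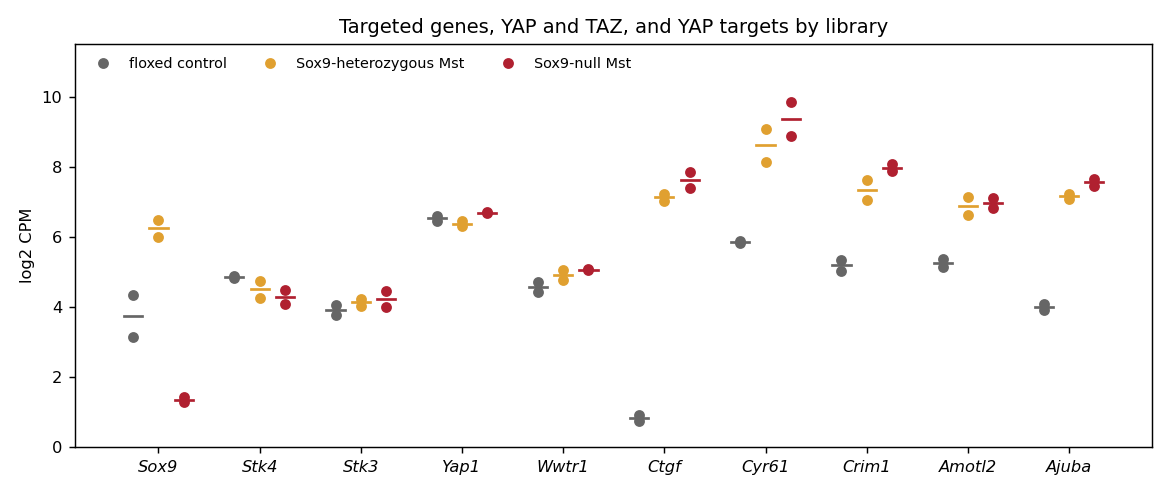
Log2 CPM of the targeted genes, of Yap1 and Wwtr1, and of 5 genes of the YAP target and Hippo lists in each library of the Mst experiment. Points are the 2 libraries of a group and bars their mean. Sox9 is lowest in the Sox9-null libraries, while Ctgf, Cyr61, Crim1, Amotl2 and Ajuba lie above the floxed controls in both Cre groups.

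Against the floxed control, 829 genes were called, 7.76% of those tested. Of these, 735 were higher in the Sox9-null hepatocytes (6.88%) and 94 lower (0.88%). The libraries of the 2 groups did not overlap for any of the 829, beside 39.6% of all kept genes without overlap and higher and 12.8% without overlap and lower. Among the higher genes 247 changed by at least 2 on the log2 scale and 28 by at least 4, with a median of 1.65. Among the lower genes 37 changed by at least 2 and 5 by at least 4, with a median of -1.77. Over all kept genes 66.9% of differences were positive and the median difference was 0.17, and it became -0.07 once library medians were made equal and -0.08 once quantiles were. The share of calls that were higher then went from 88.7% to 73.9% (472 higher, 167 lower) and 73.6% (422 higher, 151 lower). Without library 1 of the Sox9-null group 348 genes were called, without library 1 of the floxed control 383, and without its library 2 447.

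**Figure D2:**
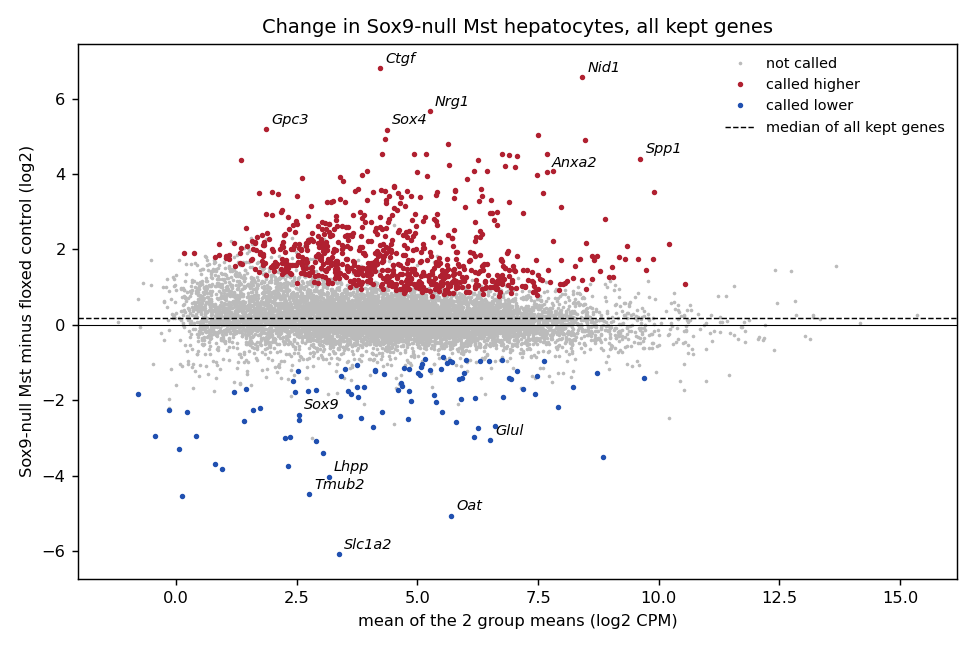
Log2 difference between the Sox9-null Mst group and the floxed control (vertical) against the mean of the 2 group means in log2 CPM (horizontal) for the 10681 kept genes. Called genes are coloured, 735 higher in red and 94 lower in blue, and the dashed line is the median of all kept genes, 0.17. Rises reach up to Ctgf and Nid1, and falls down to Slc1a2 and Oat.

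The sorted cells were checked for their own markers and for those of other liver cells. Among hepatocyte markers Alb was at 15.35 and 15.10 in the floxed controls and 15.46 and 15.53 in the Sox9-null libraries. Of 15 kept hepatocyte markers 5 had positive differences, with a median of -0.33 beside 0.17 over all kept genes. Without overlap 6 were lower and 2 higher, beside 12.8% and 39.6% of all kept genes. None was called, while 2 were called lower with library medians equalised. At an unadjusted p under 0.05 there were 3, beside 2085 of all 10681 kept genes. Epcam, on which biliary cells were sorted out, was at 0.83 and 0.83 in the controls and 0.85 and 0.82 in the Sox9-null libraries. Krt7 and Krt19, which define bile duct cells, stayed below log2 1 in all 4 libraries, with Krt7 at -0.47 in each. Ptprc, the gene of CD45, stood at 0.70 and 0.47 in the controls and 1.11 and 1.6 in the Sox9-null libraries, and none of 10 measured neutrophil markers reached log2 1 in these 4 libraries. Of 11 measured lymphoid markers 10 were below 0 in all 4, and of 4 erythroid markers 2 were kept and neither passed (0 at an unadjusted p under 0.05).

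Endothelial markers stood apart from this. Of 21 kept endothelial markers 14 rose (66.7%, beside 6.88% of all kept genes) and 20 had positive differences, with a median of 2.67. Their CPM summed over 22 genes to 79.3 and 79.4 in the floxed controls, 547 and 724 in the Sox9-heterozygous libraries and 603 and 581 in the Sox9-null libraries. Stab2, a scavenger receptor of sinusoidal endothelium, went from 2.74 and 2.62 to 6.80 and 5.93, and the vascular cadherin Cdh5 from 1.30 and 1.17 to 4.22 and 4.54. The count of 14 was 8 without library 1 of the floxed control and 9 without library 1 of the Sox9-null group.

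Macrophage markers were uneven between the 2 Sox9-null libraries. Of 15 kept, 3 rose, and the median against the controls was 2.07 in library 1 and 0.42 in library 2. Clec4f, specific to Kupffer cells, the resident macrophages, was at 1.79 and 2.06 in the controls and 5.31 and 3.12 in the Sox9-null libraries. The summed CPM over 20 genes was 77.7 and 94.7 in the controls and 573 and 262 in the Sox9-null libraries. Mpeg1, a pore-forming protein of macrophages, kept its call without each library (2.48 ± 0.29, adjusted p = 4.85e-05). The count fell to 1 without library 1 of the floxed control and without library 1 of the Sox9-null group, and rose to 6 without its library 2. For stellate cells 2 of 12 kept markers rose (16.7%), with sums over 19 genes of 54.3 and 64.0 against 123 and 158. The stellate count was 1 without library 1 of the floxed control. Biliary markers summed over 14 genes to 112 and 146 in the controls against 557 and 407 in the Sox9-null libraries, with Bicc1 and Pkhd1 as the 2 of 10 kept that rose. Bicc1 made up most of that increase, and without it the sums over 13 genes were 103 and 135 in the controls against 217 and 204 in the Sox9-null libraries. In these bulk values a larger number of such cells, more RNA per cell and expression of these genes by the hepatocytes themselves cannot be told apart.

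**Figure D3:**
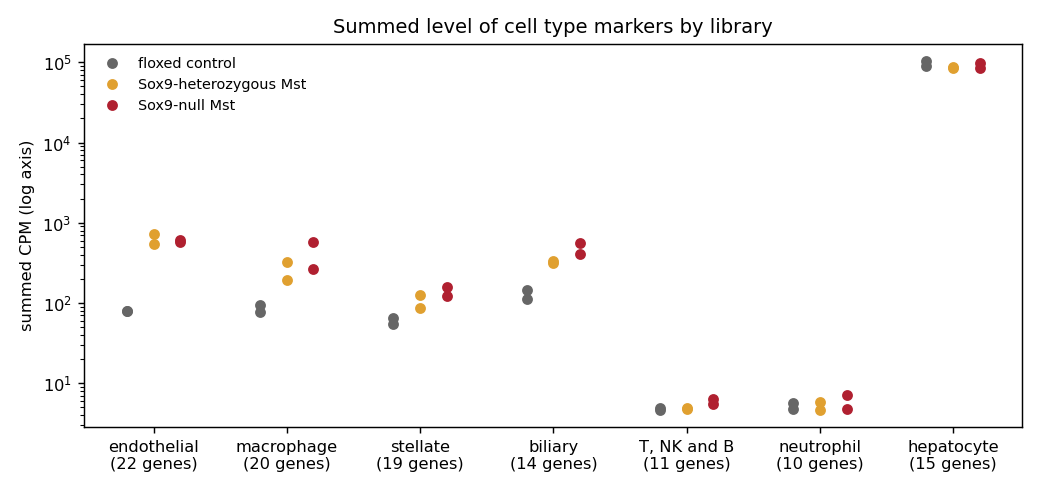
Summed CPM of each cell type marker list (log axis) in the libraries of the Mst experiment, with the number of measured genes of a list under its name. Each point is a library. Endothelial sums lie near 79 in the floxed controls and near 600 in the Sox9-null libraries, while the hepatocyte sums of the groups overlap.

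The strongest rise of all went to a classical YAP target. Ctgf, a secreted matricellular protein, was at 0.90 and 0.73 in the floxed controls, 7.22 and 7.02 in the Sox9-heterozygous libraries and 7.40 and 7.84 in the Sox9-null libraries, a ratio of 112 between the geometric means of the 2 compared groups (6.80 ± 0.35, adjusted p = 3.00e-08). Cyr61, its close relative, was at 5.83 and 5.88 and rose to 9.85 and 8.86 (3.5 ± 0.43, adjusted p = 8.64e-05). Crim1, a membrane protein that binds bone morphogenetic proteins, rose from 5.03 and 5.34 to 7.87 and 8.08 (2.79 ± 0.26, adjusted p = 5.03e-06). All 3 were higher in each of the 4 Cre libraries than in the controls, and all 3 kept their calls without each of the 4 compared libraries.

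Few other YAP and TAZ targets passed the test. Of the 22 genes of a published signature 19 were kept and 17 had positive differences, with a median of 0.75 beside 0.17 over all genes. Among these 19, 4 rose (21.1%, beside 6.88% of all kept genes) and 1 fell (5.26%, beside 0.88%). The fourth was Amotl2, an angiomotin relative that binds YAP (1.71 ± 0.35, adjusted p = 0.00565), which did not pass without library 1 of the Sox9-null group (0.054). The member that fell was Nt5e, an ecto-nucleotidase that in liver also marks pericentral hepatocytes. It went from 4.76 and 3.62 to 0.65 and 0.26 (-3.73 ± 0.70, adjusted p = 0.00326). Several well known targets did not pass, among them Ankrd1 (a difference of 0.17), Axl (0.72) and Lats2 (0.75). In the Sox9-heterozygous group, set against the same control libraries, the median of the list was 0.78.

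Among 28 Hippo components and TEAD partners 6 rose (21.4%, beside 6.88% of all kept genes) and none fell. Ajuba, a LIM protein that restrains the LATS kinases, rose most, from 4.09 and 3.90 to 7.65 and 7.44 (3.56 ± 0.28, adjusted p = 1.16e-06). Amot, an angiomotin that binds YAP, rose from 5.05 and 4.78 to 7.0 and 6.34 (1.75 ± 0.30, adjusted p = 0.00149). The scaffold Wwc1, also called KIBRA, followed with 1.44 ± 0.30 (adjusted p = 0.00674), a call that ended without library 2 of the floxed control (0.055) or library 1 of the Sox9-null group (0.055). None of the TEAD genes was called, with differences of 1.14 for Tead1, 0.19 for Tead2, -0.04 for Tead3 and 0.95 for Tead4. The list as a whole lay close to all genes, with a median of 0.24 that was 0.00 with library medians equalised. Its 6 calls became 2 without library 1 of the Sox9-null group and 3 without library 2 of the floxed control.

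TEAD factors bind DNA with the core letters GGAATG, or CATTCC when read on the other strand. The RefSeq promoters (GRCm38.p6, the 250 bases before each start, both strands searched) held these letters in 12.6% of all promoters and in 10.5% of those of kept genes. They were in 6 of 14 promoters found for 13 of the 19 kept YAP targets and in 13 of 29 promoters found for 24 of the 28 Hippo genes. Of the 6 YAP targets with the letters 3 were called, and of the 11 such Hippo genes 3. Ctgf was not among the matched genes. Stretches are shown only for genes that rose, so they do not say whether the letters go with a rise. The core letters are in capitals and each stretch is read 5′ to 3′ on the strand of its gene.
Cyr61, chr3:145650049-145650122, minus strand: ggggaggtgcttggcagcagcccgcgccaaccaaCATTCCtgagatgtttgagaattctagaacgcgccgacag
Crim1, chr17:78200135-78200208, plus strand: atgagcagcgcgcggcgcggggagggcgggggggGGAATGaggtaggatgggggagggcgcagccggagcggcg
Amotl2, chr9:102717705-102717778, plus strand: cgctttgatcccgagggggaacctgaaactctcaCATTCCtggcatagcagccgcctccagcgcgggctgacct
Ajuba, chr14:54577786-54577859, minus strand: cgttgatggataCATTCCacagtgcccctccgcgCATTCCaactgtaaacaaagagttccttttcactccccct
The stretch of Ajuba holds the letters at 2 places and the others at 1. That of Amotl2 lies within its gene, which begins at chr9:102716672, before a later start. A match of letters is a description and no measured binding site.

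Beyond YAP targets, the largest rises included matrix and secreted signalling genes. Nid1, the basement membrane linker nidogen (chr13:13437551-13512269, plus strand), went from 4.76 and 5.48 in the floxed controls to 12.32 and 11.06 in the Sox9-null libraries, with 10.49 and 11.05 in the Sox9-heterozygous libraries (6.57 ± 0.42, adjusted p = 1.80e-07). Nrg1, a ligand of ErbB receptors (chr8:31814551-32884029, minus strand), went from 2.56 and 2.28 to 8.51 and 7.67 (5.67 ± 0.35, adjusted p = 1.10e-07). Mfge8, a secreted bridge between dying cells and phagocytes, rose from 6.08 and 5.95 to 11.16 and 10.70 (4.92 ± 0.30, adjusted p = 1.10e-07). In none of these did the groups overlap. The other 12 of the 15 largest rises were those of Ctgf, given above, Gpc3 (5.18), Sox4 (5.18), Ly6d (5.04), the prostaglandin D synthase gene Ptgds (4.93), the RNA-binding protein gene Bicc1 (4.81), Lrtm2 (4.54), Fads3 (4.54), H2-Q1 (4.53), Cib3 (4.52), Spink1 (4.52) and Osbpl3 (4.51). H2-Q1 belongs to a family of near-identical MHC class I genes, so its value is uncertain. All 15 kept their calls without each of the 4 libraries.

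**Figure D4:**
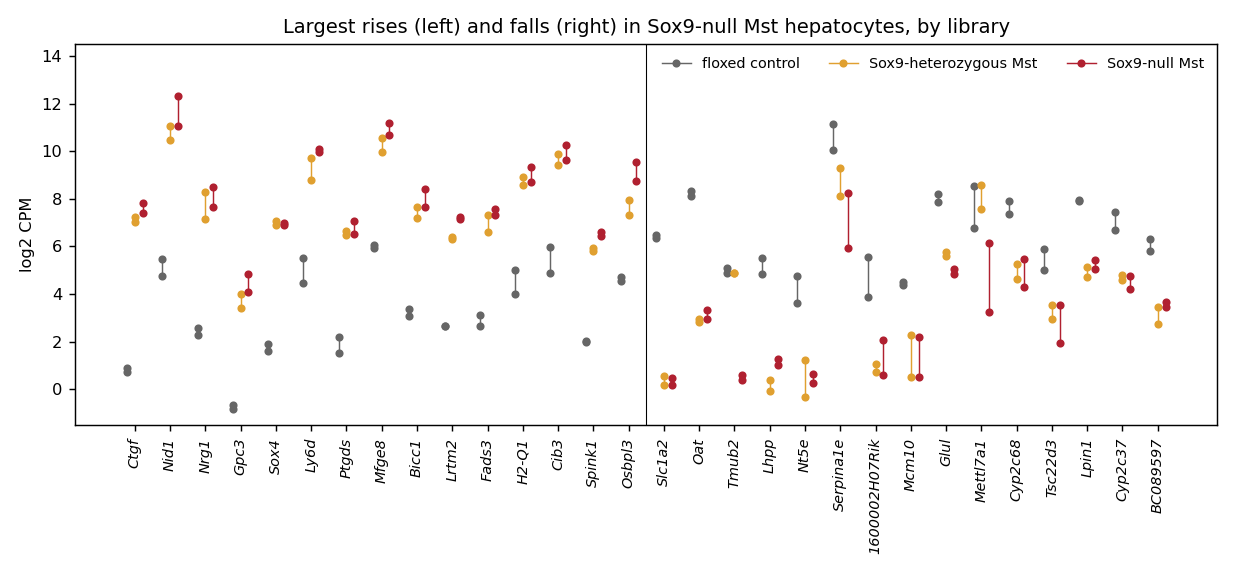
Log2 CPM of the 15 largest rises (left) and 15 largest falls (right), among called genes with a mean of at least 4 in the higher group, in each library of the floxed control, the Sox9-heterozygous and the Sox9-null Mst group. Lines join the 2 libraries of a group. Most Sox9-heterozygous libraries lie near the Sox9-null ones, while for Tmub2 and Mettl7a1 they lie with the controls.

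Matrix genes as a list rose in part. Of 23 kept, 7 rose (30.4%, beside 6.88% of all kept genes) and 1 fell (4.35%, beside 0.88%), with a median of 0.94. Beside Nid1, the laminin chain Lamb2 (2.62 ± 0.40, adjusted p = 5.94e-04) and the matricellular protein Sparc (3.23 ± 0.56, adjusted p = 0.00175) rose in all fits without 1 library. Col15a1, a basement membrane collagen, was the member that fell (-1.73 ± 0.50, adjusted p = 0.0468). That call ended without library 2 of the floxed control (0.49) and without library 1 (0.058) or 2 (0.25) of the Sox9-null group. Endothelial and stellate cells also make several of these proteins, and their summed markers moved in the same direction, as given above. The part of such cells in the matrix result was not tested.

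Among 10 kept ErbB receptors and ligands, Nrg1 and betacellulin (Btc) rose, and the receptors Egfr (-0.64), Erbb3 (0.42) and Erbb4 (0.88) did not pass. Btc was at 1.62 ± 0.30 (adjusted p = 0.00328), a call that ended without library 1 of the Sox9-null group (0.053), which left 1 call in the list. Of 14 TGF-beta genes 3 were called higher (21.4%, beside 6.88% of all kept genes). They were the ligand Tgfb1 (2.0 ± 0.47), the receptor Tgfbr2 (0.84 ± 0.24) and the inhibitory Smad7 (1.08 ± 0.32). The count was 0 without library 1 of the floxed control and without library 1 of the Sox9-null group, and 1 without library 2 of either. The adjusted p of Tgfb1 was 0.0155 with all libraries, 0.13 without the first of these and 0.16 without the second.

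Genes of bile duct and progenitor cells rose while Sox9 itself fell. Of 19 kept members 11 rose (57.9%, beside 6.88% of all kept genes) and 1, Sox9, fell, with a median of 1.73. Spp1, osteopontin, went from 7.37 and 7.45 in the floxed controls to 11.85 and 11.80 in the Sox9-null libraries and stood at 11.59 and 11.56 in the Sox9-heterozygous libraries (4.41 ± 0.38, adjusted p = 2.28e-06). Sox4, a related SOX factor, went from 1.62 and 1.92 to 7.0 and 6.89, beside 7.08 and 6.88 in the Sox9-heterozygous libraries (5.18 ± 0.37, adjusted p = 5.16e-07). Bicc1, an RNA-binding protein of ducts, went from 3.09 and 3.37 to 8.41 and 7.67 (4.81 ± 0.37, adjusted p = 1.16e-06). The keratin gene Krt23 (4.09 ± 0.45, adjusted p = 2.86e-05) and the fibrocystin gene Pkhd1 (2.32 ± 0.31, adjusted p = 1.95e-04) also rose. Of markers of mature ducts, Epcam (a difference of 0.01) and Tspan8 (0.00) did not pass. Epcam-positive cells were removed by the sort and Epcam lay under log2 1 in both groups. Its flat value therefore cannot show whether genes of mature ducts changed. Aqp1, a water channel of ducts that endothelium also makes, rose by 3.55 ± 0.59 (adjusted p = 0.00125). With 1 library left out 9 to 11 members rose. The letters AACAAT that SOX factors bind, or ATTGTT on the other strand, were in none of the 16 promoters found for 14 of these genes. The share was 9.35% of all promoters and 5.29% of those of kept genes, and no match says only that the letters are not in these windows.

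Of the Notch genes, whose signal drives bile duct fate, 7 of 17 listed were kept and all 7 were positive (median 1.38). Among the 7, 4 were called higher (57.1%, beside 6.88% of all kept genes). The receptor Notch1 (2.0 ± 0.40, adjusted p = 0.00550), the ligands Jag1 (1.38 ± 0.38, adjusted p = 0.0352) and Dll1 (1.59 ± 0.41, adjusted p = 0.0239) and the effector Hes1 (1.73 ± 0.50, adjusted p = 0.0452) were called. None of the 4 was called without library 2 of the floxed control or library 1 of the Sox9-null group, and 1 without library 1 of the floxed control. The adjusted p of Notch1 was then 0.051 and 0.068. With library medians equalised or after quantile normalization 1 was called. Endothelial cells express Notch genes too, and their part was not tested.

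Mitotic genes had the largest share of calls of any list. Of 27 kept genes of the G2 phase and mitosis 22 rose (81.5%, beside 6.88% of all kept genes). All 27 had positive differences and the median was 2.13. Cdc20, the activator of the anaphase-promoting complex, was at 3.57 and 2.47 in the floxed controls, 5.02 and 6.01 in the Sox9-heterozygous libraries and 6.53 and 6.61 in the Sox9-null libraries (3.54 ± 0.55, adjusted p = 7.16e-04). Ccna2, cyclin A2, went from 2.84 and 2.57 to 6.11 and 5.90 (3.30 ± 0.51, adjusted p = 7.31e-04), and the kinetochore gene Cenpf from 2.26 and 2.33 to 6.22 and 5.0 (3.32 ± 0.50, adjusted p = 5.94e-04). Racgap1, which acts in cell division at the midzone, rose by 3.00 ± 0.46 (adjusted p = 6.91e-04) and the kinesin Kif20a by 2.94 ± 0.50 (adjusted p = 0.00140). The count was 13 without library 1 of the Sox9-null group, 15 without library 1 of the floxed control, 17 without its library 2 and 22 without library 2 of the Sox9-null group. Bulk values do not show in which cells these transcripts lay.

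Genes of the G1 phase and DNA replication had fewer calls. Of 24 kept, 2 rose (8.33%, near the 6.88% of all kept genes) and 1 fell (4.17%, beside 0.88%), with a median of 0.57. Ccnd1, cyclin D1, went from 4.81 and 4.59 to 9.15 and 8.67 and stood at 7.58 and 8.32 in the Sox9-heterozygous libraries (4.21 ± 0.37, adjusted p = 2.62e-06). The replication factor gene Mcm10 went the other way, from 4.50 and 4.39 to 2.18 and 0.54 (-3.09 ± 0.60, adjusted p = 0.00410), while the other Mcm genes kept, Mcm2 to Mcm7, had differences from 0.20 to 1.0 and none passed. The licensing factor gene Cdt1 (1.15, adjusted p = 0.0468) was the other rise and was lost without any 1 of the 4 libraries (adjusted p of 0.30, 0.11, 0.40 and 0.062 without control library 1 and 2 and Sox9-null library 1 and 2).

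Promoters of mitotic genes often hold a CCAAT box and a cell cycle homology region with the core letters TTTGAA, or TTCAAA on the other strand. The TTTGAA letters were in 10 of 24 promoters found for 22 of the 27 kept mitotic genes and in 2 of 23 promoters found for 19 of the 24 G1 and replication genes. They were in 15.8% of all promoters and 10.6% of those of kept genes. CCAAT letters were in 20 of 24 and 13 of 23, beside 33.8% of all and 35.2% of those of kept genes. Both strands were searched, and a CCAAT match and a TTTGAA match can share at most 1 base. Shown are stretches of mitotic genes that rose, which carry the broadest change in the data, with TTTGAA or TTCAAA in capitals.
Cdc20, chr4:118437344-118437395, minus strand: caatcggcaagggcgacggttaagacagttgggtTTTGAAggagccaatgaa
Prc1, chr7:80294412-80294475, plus strand: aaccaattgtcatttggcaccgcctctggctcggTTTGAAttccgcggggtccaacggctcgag
Ube2c, chr2:164769866-164769928, plus strand: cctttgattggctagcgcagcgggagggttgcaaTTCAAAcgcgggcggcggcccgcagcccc
Cdk1, chr10:69352913-69352961, minus strand: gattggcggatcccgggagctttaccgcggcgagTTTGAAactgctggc
The matched letters shown lie within the last 30 bases before the start in these 4 genes, which were chosen from those with a match. Where a window held more than 1 match, as the 2 of Cdk1, the stretch was centred on the match nearest the start. In Ccnb2, not shown, the match lies 167 bases before it.

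Of 19 kept p53 targets 7 rose (36.8%, beside 6.88% of all kept genes), with a median of 0.87. Phlda3, a repressor of AKT, was at 1.44 and 0.78 in the floxed controls and 3.84 and 3.66 in the Sox9-null libraries (2.64 ± 0.50, adjusted p = 0.00363). Psrc1, which acts at the mitotic spindle, rose by 2.94 ± 0.53 (adjusted p = 0.00249). The stress cytokine Gdf15 was called with all libraries (2.22 ± 0.45, adjusted p = 0.00585) and lost the call without library 1 of the floxed control (0.061) or of the Sox9-null group (0.051). The count of 7 was 2 without either of those libraries.

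Fetal and tumour-associated genes were split. Of 15 kept, 5 rose (33.3%, beside 6.88% of all kept genes) and 1 fell (6.67%, beside 0.88%), with a median of 0.85. Gpc3, glypican 3 of the fetal liver surface, went from -0.80 and -0.65 in the floxed controls to 4.84 and 4.08 in the Sox9-null libraries (5.18 ± 0.46, adjusted p = 2.75e-06). The imprinted RNA H19 rose from 2.89 and 1.73 to 5.44 and 6.24 (3.54 ± 0.41, adjusted p = 4.85e-05), while Meg3, another imprinted RNA, fell from 3.11 and 2.62 to -0.72 and -1.17 (-3.81 ± 0.64, adjusted p = 0.00132). Meg3 was at -1.44 and -0.55 in the Sox9-heterozygous libraries. Afp, alpha-fetoprotein, did not pass (0.59 ± 0.46, adjusted p = 0.553).

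Cytoskeletal genes shared a direction, and 37.5% of those kept rose, beside 6.88% of all kept genes. All 24 kept genes of the actin cytoskeleton, annexins and integrins had positive differences and 9 rose (median 0.60), 6 without library 1 of the Sox9-null group. Anxa2, a membrane-binding annexin, went from 5.72 and 5.60 to 10.17 and 9.24 (4.05 ± 0.40, adjusted p = 1.08e-05). Filamin A (Flna), which crosslinks actin, went from 4.28 and 3.61 to 7.25 and 6.51 (2.93 ± 0.37, adjusted p = 9.57e-05). Galectin 1 (Lgals1) and annexin A5 (Anxa5) rose by 2.33 and 2.80.

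Of 19 kept chemokines and cytokines 7 rose (36.8%, beside 6.88% of all kept genes), with a median of 0.77. The monocyte chemokine Ccl2 went from 2.62 and 3.08 to 6.05 and 4.80 (2.58 ± 0.40, adjusted p = 7.66e-04), Cxcl16 from 3.16 and 2.69 to 5.31 and 5.73 (2.59 ± 0.41, adjusted p = 8.15e-04) and Ccl9 from 7.27 and 7.51 to 9.89 and 9.25 (2.18 ± 0.40, adjusted p = 0.00283). Macrophage markers were higher in the same libraries, most in library 1 of the Sox9-null group, and their part was not tested. The largest rises among 26 immediate early genes were those of Klf6 (4.48 ± 0.32, adjusted p = 4.67e-07), Cyr61, given above as a YAP target, and Gadd45b (2.79 ± 0.45, adjusted p = 8.84e-04). Of the 26, 7 rose (26.9%, beside 6.88% of all kept genes). That count was 3 without library 1 of the floxed control and 4 without library 1 of the Sox9-null group. In the interferon list 1 of 27 genes rose, Ifit2 (3.81 ± 0.33, adjusted p = 2.62e-06), and 1 fell, the regulator Irf7 (-1.02 ± 0.29, adjusted p = 0.0409), with a list median of -0.14. Each is 3.70% of that list, beside 6.88% of all kept genes called higher and 0.88% lower. The call for Irf7 was lost without control library 1 (0.081) or 2 (0.30) and without Sox9-null library 1 (0.25) or 2 (0.092).

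Genes of hepatocytes around the central vein included the 2 largest falls. Of 26 kept pericentral genes 8 fell (30.8%, beside 0.88% of all genes) and 2 rose (7.69%, beside 6.88%), with a median of -0.75. Slc1a2, a glutamate transporter (chr2:102658659-102790784, plus strand), went from 6.49 and 6.35 in the floxed controls to 0.17 and 0.56 in the Sox9-heterozygous and 0.46 and 0.20 in the Sox9-null libraries (-6.09 ± 0.48, adjusted p = 1.16e-06). Oat, ornithine aminotransferase (chr7:132557478-132576398, minus strand), went from 8.11 and 8.32 in the controls to 2.84 and 2.95 with Sox9 heterozygous and 3.34 and 2.97 with Sox9 null (-5.06 ± 0.50, adjusted p = 1.03e-05). Glutamine synthetase (Glul), the marker of the innermost layer (chr1:153899944-153909723, plus strand), went from 8.19 and 7.85 to 5.60 and 5.76 and, in the Sox9-null libraries, 4.86 and 5.08 (-3.05 ± 0.32, adjusted p = 1.85e-05). For these 3 genes no Cre library reached the level of a control library.

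The phosphatase gene Lhpp, near Oat on chromosome 7 (chr7:132610638-132706420, plus strand), fell from 4.83 and 5.50 to 1.28 and 1.02 (-4.02 ± 0.50, adjusted p = 9.09e-05), and Nt5e fell as given above. Targets of Wnt signalling, which sets the pericentral programme, were mixed. Lgr5 (-2.25, adjusted p = 0.0185) and the Wnt inhibitor Notum (-1.92, adjusted p = 0.0102) fell, Rnf43 rose (1.33, adjusted p = 0.0137), and Axin2 (0.08), Tbx3 (0.08), Znrf3 (-0.08) and Nkd1 (0.02) had differences near 0. The ethanol-metabolising Cyp2e1 had a difference of -2.46 ± 0.75 and did not pass (adjusted p = 0.0582). Gstm3, a glutathione transferase, rose by 3.53 ± 0.74 (adjusted p = 0.00693), a call that ended without library 1 of the Sox9-null group (0.077). With 1 library left out 6 to 8 pericentral genes fell, and of the 2 rises none was left without Sox9-null library 1 and 1 without either control library. The call for Lgr5 was lost without control library 2 (0.21), Sox9-null library 1 (0.054) or 2 (0.092), that for Notum without control library 1 (0.10), and that for Rnf43 without control library 1 (0.056), control library 2 (0.11) or Sox9-null library 1 (0.12). The letters CTTTGAT of the TCF and LEF factors of Wnt signalling, or ATCAAAG on the other strand, were in 3 of 23 promoters found for 20 of these genes. They were in 3.21% of all promoters and 2.29% of those of kept genes. They are shown in capitals for 2 of the genes that fell, Slc1a2 and the secreted protein gene Lect2 (-1.94 ± 0.49, adjusted p = 0.0219). The call for Lect2 was lost without control library 1 (difference -1.70) or Sox9-null library 2 (-1.49). The Slc1a2 stretch lies within the gene, before a start downstream of the gene start given above.
Slc1a2, chr2:102706197-102706271, plus strand: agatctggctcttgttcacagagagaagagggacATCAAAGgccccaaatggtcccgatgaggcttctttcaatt
Lect2, chr13:56548539-56548604, minus strand: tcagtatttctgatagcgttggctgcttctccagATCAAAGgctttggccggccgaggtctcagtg

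Other large falls had no common list. Tmub2, a ubiquitin-like membrane protein gene (chr11:102284931-102289237, plus strand), fell from 4.89 and 5.11 to 0.62 and 0.40 (-4.48 ± 0.27, adjusted p = 1.10e-07). The lipin Lpin1, which makes diacylglycerol, fell from 7.95 and 7.93 to 5.45 and 5.06 (-2.68 ± 0.39, adjusted p = 3.77e-04). Tsc22d3, a glucocorticoid-induced gene also called GILZ, fell from 5.89 and 4.99 to 1.95 and 3.53 (-2.70 ± 0.46, adjusted p = 0.00141). Cyp2c68 (-2.75) and 1600002H07Rik (-3.39) fell too, and Cyp2c68 shares sequence with other Cyp2c genes, so its value is uncertain. Of the 15 largest falls with a mean of at least 4 in the controls, 4 lost their calls without 1 library. Serpina1e (-3.51) and Mettl7a1 (-2.96) did so without library 1 of the floxed control (adjusted p of 0.19 and 0.18) or of the Sox9-null group (0.29 and 0.21). Cyp2c37 (-2.59) did so without control library 1 (0.19), control library 2 (0.052) or Sox9-null library 1 (0.17), and BC089597 (-2.49) without control library 2 (0.098) or Sox9-null library 1 (0.073).

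Few genes of the general hepatocyte programme were called. Over all kept genes 7.76% were called against the floxed control (6.88% higher and 0.88% lower), and 2085 of 10681 had an unadjusted p under 0.05. None of 20 kept liver-enriched transcription factors was called (2 at an unadjusted p under 0.05), with a median of 0.02. Hnf4a, the central one, stood at 9.85 and 10.02 in the floxed controls and 9.99 and 9.34 in the Sox9-null libraries, with overlapping groups. None of 33 plasma protein genes was called either (1 at an unadjusted p under 0.05), with a median of -0.18. Ttr, transthyretin, had the largest difference of these (-1.33 ± 0.42, adjusted p = 0.0680). Periportal genes had 2 falls and 1 rise among 24 (median -0.40), with 5 falls without Sox9-null library 2 and 1 without control library 1. The rise, of the cadherin gene Cdh1 (1.18), was lost without each of the 4 libraries. Of them the protease gene Ctsc fell from 5.87 and 6.68 to 4.44 and 4.39 (-1.86 ± 0.30, adjusted p = 0.00103). Urea cycle genes of that zone were not called, with 0.07 for Cps1, -0.24 for Otc, -0.95 for Asl and -1.10 for Arg1. In the P450 list of families 1 to 3, 2 of 29 fell and 24 had negative differences (median -0.49). Both falls, Cyp2c37 and Cyp2d40, depended on single libraries. Cyp2d40 (-1.64, adjusted p = 0.0362) lost its call without control library 1 (0.25), control library 2 (0.061) or Sox9-null library 1 (0.35).

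Male-biased liver genes had the lowest median of all lists, -1.40, with 7 of 19 kept falling (36.8%, beside 0.88% of all kept genes). Hsd3b5, a male-specific steroid dehydrogenase, was at 2.93 and 2.38 in the floxed controls, 1.34 and 0.14 in the Sox9-heterozygous libraries and -1.93 and -0.16 in the Sox9-null libraries (-3.70 ± 0.68, adjusted p = 0.00283). Cspg5 went from 0.89 and 1.17 to -1.72 and -2.12 (-2.95 ± 0.56, adjusted p = 0.00352). The 2 Sox9-null libraries differed here, with list medians of -1.81 in library 1 and -0.83 in library 2. Without library 1 of the Sox9-null group or of the floxed control 2 members fell, without control library 2 5, and without Sox9-null library 2 9. The 19 female-biased genes were divided, with 10 positive differences, a median of 0.40 and a lowest difference of -2.09 for Cyp2b10, which did not pass. Without overlap 8 lay higher and 7 lower, beside 39.6% and 12.8% of all kept genes. Among them 3 rose (15.8%, beside 6.88% of all kept genes) and none fell. The rises included the neurotrophin receptor gene Ntrk2, from 3.73 and 4.42 to 8.67 and 8.24 (4.38 ± 0.51, adjusted p = 4.85e-05), and the fatty acid transporter gene Cd36, from 6.62 and 6.23 to 9.54 and 9.54 (3.11 ± 0.46, adjusted p = 4.38e-04).

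Most other metabolic lists had few calls. Cholesterol and fatty acid synthesis (median 0.18), glycolysis (0.14), fatty acid oxidation (-0.18), amino acid and single-carbon metabolism (-0.12), bile acid synthesis and transport (-0.28) and the circadian clock (0.05) each had at most 1 call in a direction among 18 to 29 kept genes. Conjugation (0.23) had 3 rises and 3 falls among 33 (9.09% each). Acute phase proteins (-0.01) had 3 rises and 1 fall among 23 (13.0% and 4.35%). Over all kept genes 6.88% were called higher and 0.88% lower. Without library 1 of the Sox9-null group the calls in the glycolysis, cholesterol, clock and acute phase lists were lost. In the fatty acid oxidation list the pantetheinase gene Vnn1 rose by 2.41 ± 0.34 (adjusted p = 2.64e-04), and among the sulphotransferases Sult2a8 fell (-2.06 ± 0.32, adjusted p = 7.27e-04). The medians of the cholesterol, glycolysis, clock, liver transcription factor and conjugation lists, all within 0.23 of 0, became negative with library medians equalised.

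**Figure D5:**
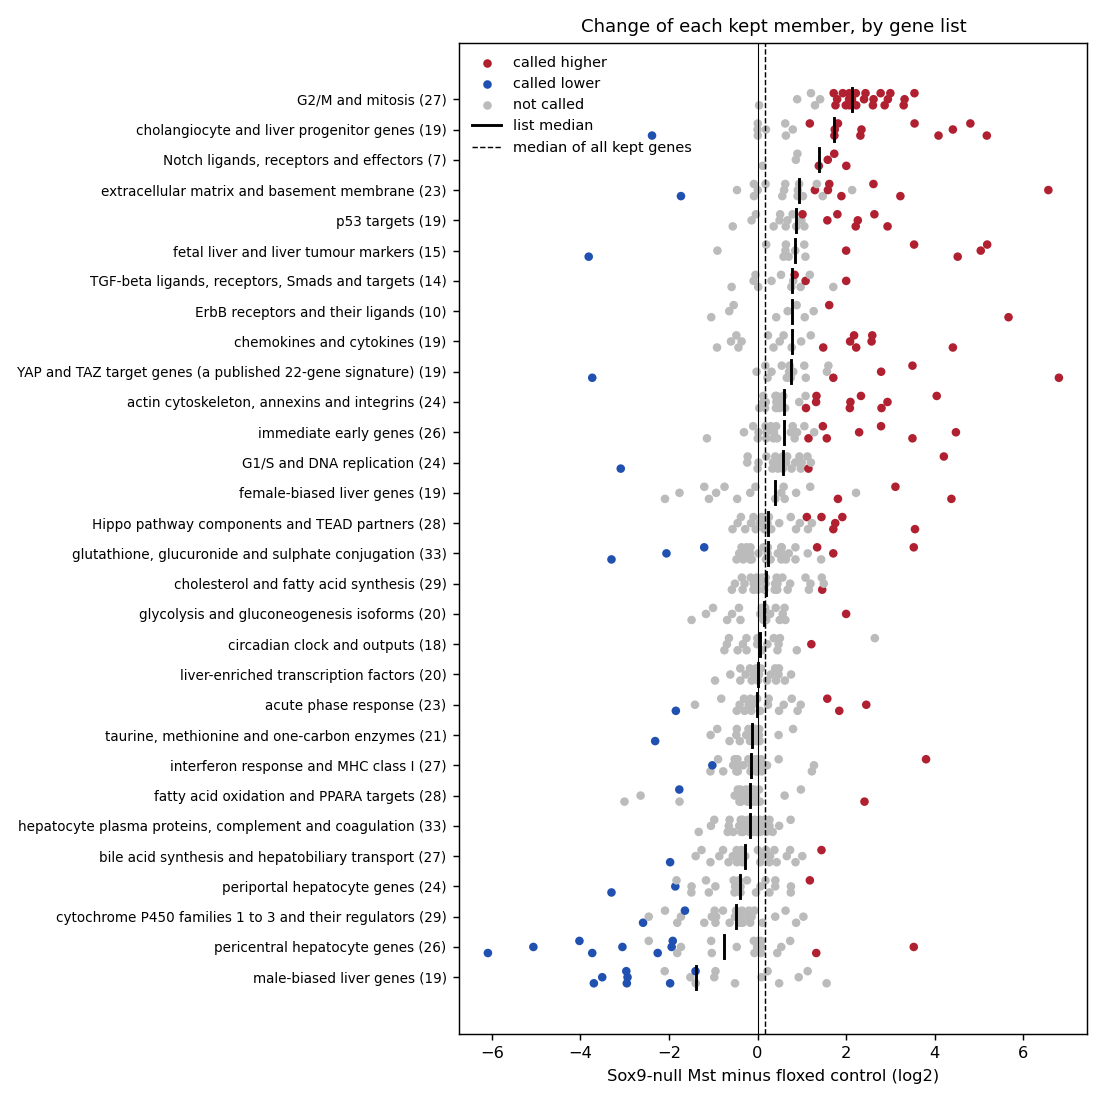
Log2 difference between the Sox9-null Mst group and the floxed control for every kept member of 30 gene lists, with the number of kept members in brackets. Bars mark list medians and the dashed line the median of all kept genes, 0.17. Mitotic genes lie highest, with a median of 2.13, and male-biased and pericentral genes lowest.

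Set against the Sox9-heterozygous Mst group, which had the same kinase deletion, virus and sorting, the Sox9-null group differed in few single genes. At the same threshold 5 of 10681 genes were called (0.0468%), 2 higher (0.0187%) and 3 lower (0.0281%), and 629 had an unadjusted p under 0.05, of which 566 were higher. The count was 20 without library 1 of the Sox9-heterozygous group and 3 without its library 2. Sox9 had the largest difference (-4.88 ± 0.38, adjusted p = 6.31e-06). Tmub2 was next, at 4.90 and 4.90 in the Sox9-heterozygous and 0.62 and 0.40 in the Sox9-null libraries (-4.38 ± 0.27, adjusted p = 3.41e-07). Both calls held in each alternative fit. In the other experiment Tmub2 was at 5.13 and 4.72 in Sox9-heterozygous and 0.68 and 0.68 in Sox9-null libraries.

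The other 3 calls were each lost in some fits without 1 library. Vamp2, a vesicle fusion protein gene (chr11:69088490-69092384, plus strand), was at 2.21 and 1.96 in the Sox9-heterozygous and 6.27 and 4.92 in the Sox9-null libraries (3.51 ± 0.53, adjusted p = 0.0155), and the noncoding 2610507I01Rik (chr11:59199836-59202385, minus strand) was at 1.98 and 1.89 against 5.48 and 4.51 (3.06 ± 0.45, adjusted p = 0.0137). Both lost their calls without Sox9-null library 1 (0.29 and 0.29) or Sox9-heterozygous library 2 (0.14 and 0.14), with differences of 2.84 to 4.18 for Vamp2 and 2.57 to 3.55 for 2610507I01Rik over the fits without 1 library. In the YAP experiment Vamp2 was at -0.81 and -0.93 in the Sox9-heterozygous and 3.56 and 4.52 in the Sox9-null libraries, and 2610507I01Rik at -1.74 and -1.74 and 2.46 and 3.35, so both were higher with Sox9 null there too. Sec22a, of transport between the endoplasmic reticulum and the Golgi, had a difference of -2.33 ± 0.33 (adjusted p = 0.0114) and lost its call without Sox9-null library 2 (0.11) or Sox9-heterozygous library 1 (0.050), with differences of -2.56 to -2.10 over such fits. In the YAP experiment Sec22a was at 3.67 and 3.15 in the Sox9-heterozygous and 4.06 and 3.81 in the Sox9-null libraries. The genes Sox9, Tmub2, Vamp2 and 2610507I01Rik, 4 of the 5, lie on chromosome 11, which holds 8.18% of the kept genes. Within 5 Mb of Sox9 none of 74 kept genes besides Sox9 itself was called against the heterozygous group, beside 0.0468% of all kept genes. Against the floxed control 9 of 74 were higher (12.2%), beside 6.88% of all kept genes. What the position on chromosome 11 contributes was not tested.

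Some lists leaned one way between the 2 Cre groups without calls of single genes. All 27 mitotic genes were higher in the Sox9-null group, with a median of 1.04 beside 0.09 over all kept genes, of which 63.5% were positive. In 17 of the 27 both Sox9-null libraries lay above both Sox9-heterozygous libraries, beside 22.8% of all kept genes, and 15 had an unadjusted p under 0.05. None was called after adjustment, and Cdc20 had a difference of 1.05 ± 0.55 (adjusted p = 0.924). The 19 male-biased genes were all lower, with a median of -0.83, and 11 did not overlap, beside 7.72% of all kept genes. Again none was called, with 4 at an unadjusted p under 0.05. Endothelial markers had a median of -0.10 and YAP targets one of 0.18 in the same comparison, with none called (0 and 2 at an unadjusted p under 0.05). Bile duct and progenitor genes had 1 call, Sox9 itself.

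The effect in Sox9-null Mst hepatocytes differed from that in Sox9-null YAP S127A hepatocytes, each against its own GFP control, in 29 genes (0.272%). Of these, 17 were higher (0.159%) and 12 lower (0.112%) in the Mst effect. Time after injection, way of activation and genotype of the controls differ between the experiments too, and these cannot be told apart. Since both GFP control groups had nearly the same deposited means, the comparison amounts to that of the 2 Sox9-null groups. Ntrk2 showed the largest named difference (6.36 ± 0.72, adjusted p = 5.49e-04). Its libraries were at 8.67 and 8.24 in the Sox9-null Mst group and 3.73 and 4.42 in its control, beside 1.36 and 2.95 in the Sox9-null YAP group and 4.94 and 3.34 in the wild type control. Smpd3, a sphingomyelinase gene, was at 8.71 and 7.71 against 4.01 and 4.26 in the Mst experiment, beside 3.36 and 4.05 against 4.29 and 4.07 in the YAP experiment (4.55 ± 0.48, adjusted p = 4.80e-04). For both genes the Sox9-null Mst libraries were above all the others given, and the Sox9-null YAP libraries did not exceed their control. Of the genes described above, Klf6 (2.70 ± 0.45, adjusted p = 0.0178), Osbpl3 (3.16 ± 0.53, 0.0178) and Krt23 (3.39 ± 0.64, 0.0379) were also called higher. H19 was called lower (-3.02 ± 0.58, 0.0433). Ctgf (2.28 ± 0.49, adjusted p = 0.0728) and Slc1a2 (-3.04 ± 0.67, adjusted p = 0.0831) did not pass in this comparison. Ctgf was at 6.01 and 4.73 and Slc1a2 at 4.00 and 2.76 in the Sox9-null YAP libraries.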

How the data were processed

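RNA from sorted mouse hepatocytes was read with an Ion AmpliSeq transcriptome panel on an Ion S5, per the labels' protocols. The authors deposited log2 CPM values for 16116 genes in 12 libraries, 2 in each of 6 groups. The aligner, the genome build, the counting and the read depth are not stated in the labels used here, and whole reads could not be recovered, so no count test was run. The 10681 genes that reached a log2 value of 1 in 2 or more libraries were fitted with limma 3.58.1 (R 4.3.3, lmFit and eBayes with trend) over all 12 libraries, at a Benjamini-Hochberg adjusted p of 0.05, after checks on simulated data. Named genes were the 15 largest called rises and falls without overlap whose higher group had a mean of 4 or more, up to 6 such genes per direction for the other 2 comparisons, the 5 largest called members of each list, and the targeted genes. Others were named after their values were seen. The comparison and the gene lists were chosen with earlier results of these data known. Alternatives covered filters, a pseudocount of 1, scaling, the trend, the replicate block, the gene-wise rescaling, subsets of libraries and leaving out each library. Gene positions are from GENCODE M21 (GRCm38) and promoters from RefSeq (GRCm38.p6), both matched by symbol.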

Additional observations from a re-analysis of the deposited data

Results flagged for a closer look

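In 29 genes the effect in the Sox9-null Mst group over its GFP control differed from that in the Sox9-null YAP group over its own. The test was limma's test of that difference with Benjamini-Hochberg adjustment over all kept genes. Klf6, Osbpl3, Krt23 and H19 were among them and are given above. The 12 genes below were picked by the naming rule, up to 6 in each direction. The differences were 6.36 for the neurotrophin receptor Ntrk2 (adjusted p = 5.49e-04), 4.55 for the sphingomyelinase Smpd3 (4.80e-04), 4.26 for lipoprotein lipase, Lpl (0.0193), 4.05 for the stress cytokine Gdf15 (0.0115), 4.00 for the immediate early gene Egr1 (4.80e-04) and 3.75 for Tmem51 (8.18e-04). They were -4.13 for the phosphate transporter Slc34a2 (0.0379), -4.04 for the fatty acid hydroxylase Cyp4a31 (0.0209), -3.85 for the transcription factor Glis2 (0.0371), -3.51 for the chaperone Cryab (0.0433), -3.30 for the Wnt scaffold Axin1 (0.0115) and -3.21 for the oxysterol hydroxylase Cyp39a1 (5.49e-04).

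Egr1 itself did not pass between the Sox9-null Mst group and its control, with 8.86 and 8.48 against 7.41 and 8.14, while it was at 4.79 and 4.76 in the Sox9-null YAP group and 7.78 and 7.99 in its control. Axin1 was at 2.27 and 2.10 against 4.90 and 4.30 in the Mst experiment and at 5.69 and 5.28 against 4.4 and 4.81 in the YAP experiment. Glis2 was at 1.99 and 1.49 against 0.79 and 0.77 in the first and at 5.21 and 5.99 against 0.71 and 0.86 in the second.

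The calls for Ntrk2, Smpd3, Egr1, Tmem51 and Cyp39a1 held without each of the 8 libraries. That for Gdf15 was lost without wild type library 2 (0.065) and that for Glis2 without any 1 of the 8 (adjusted p of 0.051 to 0.19). The call for Axin1 was lost without library 1 of the floxed control (0.054), of the wild type control (0.093) or of the Sox9-null YAP group (0.074). That for Lpl was lost without floxed control library 2 (0.067), wild type library 2 (0.078) or Sox9-null YAP library 1 (0.086) or 2 (0.10). That for Cyp4a31 was lost without floxed control library 1 (0.054) or 2 (0.058), wild type library 1 (0.16) or Sox9-null YAP library 1 (0.13). Those for Slc34a2 and Cryab were lost without 5 and 6 of the 8 libraries, with the highest adjusted p without wild type library 1 for Slc34a2 (0.21) and without floxed control library 1 for Cryab (0.23).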

How the results depend on the processing

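Of 139 named genes, 125 were called against the floxed control. Of these, 70 kept the call in every setting run, 53 lost it in a fit without 1 library and 18 with library medians equalised or quantile normalization, and none of the 125 called differences changed sign. The 829 calls against the floxed control became 416 with no filter on low values, 1668 from the 4 compared libraries alone and 2817 with the inferred gene-wise rescaling undone. They were 348 to 642 without 1 library, 639 with medians equalised and 573 after quantile normalization. The 5 calls against the Sox9-heterozygous group became 2 with no filter, 2 from the 6 Mst libraries alone, 181 with the rescaling undone and 3 to 20 without 1 library. The 29 genes that differed between the experiments became 8 with no filter, 7 without the trend of variance with level, 569 with the rescaling undone and 14 to 29 without 1 library. With the replicate number as a block the counts were 789, 7 and 50. The labels pair libraries by number only, and since the deposited means of first and second Mst libraries were equal (median difference 0.0051), their deviations were negatively correlated (-0.315 between control and Sox9-null). A crossed block, chosen after seeing the data, gave 821. The cause of these changes was not tested. No read depth is stated in the labels, so the precision of low genes is unknown.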

Other observations

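Genes on chromosome 11, which carries Sox9, made up 76 of the 735 genes that were higher (10.3%) and 4 of the 94 that were lower (4.26%) than in the floxed control, beside 8.18% of all kept genes with a known position. In the 20 Mb on either side of Sox9, 9.48% of 306 kept genes were called, against 11.3% of 222 around Stk4 and 7.69% of 52 around Stk3, beside 7.76% of all kept genes.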
